A study of Arabidopsis thaliana with 18 samples.

Results

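In Arabidopsis leaves sampled 0, 12 and 24 h after a dexamethasone spray, 31 of 23790 measured genes peaked at 12 h in both of the 2 transgenic lines studied. They were chosen from the same counts that are described here: the mean level at 12 h had to be at least 3 times the mean at 0 h and at least 3 times the mean at 24 h in each line, and to reach 5 CPM in each line (CPM is a count scaled by the size of its library). The rise to 12 h and the return by 24 h are therefore how the genes were picked and are given as description, with no test. Tests of single genes are read for the difference between the lines at each time. They are also read for 24 h against 0 h, which the rule did not compare directly. The rule did set both of these means against 12 h, so shares of the set called at 24 h against 0 h are description. Peak height in each line was part of the rule, so its difference between the lines is description as well. The rule also used the 12 h level of each line, so the share of the set called between the lines at 12 h is description.

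The study asked what changes in the transcriptome when NAA50, a catalytic subunit of N-terminal acetyltransferase, is knocked down. In the NAA50 line a dexamethasone-inducible artificial microRNA (amiRNA) is directed at NAA50, while the scrambled line serves as its negative control with an inducible amiRNA of scrambled sequence. Plants of both lines were 4 weeks old, had days of 8 h light and nights of 16 h, and received 50 µM dexamethasone as a spray. Each library held 0.4 g of leaf 4 pooled over 4 plants, although another label names the rosette. The NAA50 line was sampled at 0, 12 and 24 h and the scrambled line at 0, 12 and 24 h, with 3 libraries in each of the 6 groups. The labels name 1 genotype per line and do not give the number of independent transformants, the promoter behind the inducible system or the hour of the spray. Unsprayed plants at 12 h and 24 h are not analysed here, so time of day, the spray and induction of an amiRNA cannot be told apart in a peak shared by both lines.

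Some of the 31 genes belong to pathways that plants run at set times of day. Among the rest are 7 of other named families, 3 of ubiquitin ligase families and 3 uncharacterized genes. HY5, a bZIP transcription factor, promotes light-dependent development by binding promoter elements with an ACGT core, and B-box (BBX) zinc finger proteins bind it or its partners and raise or lower its activity. Flavonols, which absorb ultraviolet light, are made under MYB factors such as MYB111 and stored as glucosides. The circadian clock, with the morning-expressed MYB-like factors CCA1 and LHY at its core, sets the daily timing of these pathways and of starch, sulfur and phosphate metabolism.

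Promoters are shown because genes that rise and fall together can be read against the elements they share. For each gene a window of 300 bases, 250 before the annotated start and 50 after it, was read from the RefSeq TAIR10.1 genome and searched on both strands for 12 motifs, 3 of them added after the 31 genes were known. The G-box (CACGTG) stood in 6 of 31 windows (19.4%), against 9.06% of the 18195 windows of all genes tested. The evening element (AAATATCT), a site of clock MYB-like factors, stood in 5 of 31 (16.1%), against 5.99%, and the phosphate element P1BS (GNATATNC, one of the added motifs), bound by PHR1, in 5 of 31 (16.1%), against 6.28%. The TATCCA element stood in 9 of 31 (29.0%), against 16.7%, and the bare ACGT core, which every G-box contains, in 22 of 31 (71.0%), against 50.7%. The site II element (TGGGCC) stood in 6.45% of the 31, against 19.5%, and the I-box (GATAAG) in 6.45%, against 15%. The telo-box (AAACCCT) stood in 0 of 31 and in 9.37% of all, and the DRE core (CCGAC) in 9.68% and 16.7%. The CCA1-binding site (AAAAATCT) was at 9.68% and 8.25%, the HUD box (CACATG) at 16.1% and 12.6%, and the added sulfur element core (GAGAC) at 32.3% and 32.4%. Windows of genes that peaked in 1 line alone, 99 for the scrambled line and 19 for the NAA50 line, were searched as well. There the G-box stood in 16.2% and 10.5%, the TATCCA element in 17.2% and 26.3%, and the ACGT core in 56.6% and 52.6%. The evening element was at 10.1% and 5.26%, and P1BS at 8.08% and 5.26%. The site II element was at 6.06% and 5.26% and the telo-box at 3.03% and 0%, so low shares of these were not particular to the 31. With 31 windows each share moves by several percentage points per gene, no test was made, and a match is a description of letters and not a binding site.

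Given here are the 250 bases before the start of 5 genes with a G-box there, in capitals, read 5′ to 3′ along each gene's strand. BT1 had the remaining G-box, across its annotated start, and ASG4 had another after its start.
ASG4 (chr1:190158-190407, plus strand): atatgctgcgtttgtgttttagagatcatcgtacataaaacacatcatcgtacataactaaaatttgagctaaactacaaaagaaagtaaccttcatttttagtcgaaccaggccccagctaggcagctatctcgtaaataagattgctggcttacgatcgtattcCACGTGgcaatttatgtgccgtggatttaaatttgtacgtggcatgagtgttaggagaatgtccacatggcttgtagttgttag
BMY3 (chr5:6225706-6225955, plus strand): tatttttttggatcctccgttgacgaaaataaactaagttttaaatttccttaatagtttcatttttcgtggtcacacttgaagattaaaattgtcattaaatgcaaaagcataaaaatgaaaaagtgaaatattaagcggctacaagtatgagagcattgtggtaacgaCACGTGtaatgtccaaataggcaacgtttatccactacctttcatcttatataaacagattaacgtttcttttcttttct
BBX30 (chr4:8708591-8708840, plus strand): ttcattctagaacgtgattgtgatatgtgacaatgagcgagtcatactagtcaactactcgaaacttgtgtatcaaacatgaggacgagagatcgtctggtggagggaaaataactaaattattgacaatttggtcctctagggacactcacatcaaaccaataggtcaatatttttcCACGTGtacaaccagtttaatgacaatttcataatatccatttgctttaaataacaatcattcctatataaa
BEE1 (chr1:6331148-6331397, plus strand): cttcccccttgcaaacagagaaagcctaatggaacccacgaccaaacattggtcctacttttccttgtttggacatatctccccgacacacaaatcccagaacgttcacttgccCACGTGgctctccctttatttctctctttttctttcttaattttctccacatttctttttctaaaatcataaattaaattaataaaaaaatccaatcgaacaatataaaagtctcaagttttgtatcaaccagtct
LSU3 (chr3:18373148-18373397, minus strand): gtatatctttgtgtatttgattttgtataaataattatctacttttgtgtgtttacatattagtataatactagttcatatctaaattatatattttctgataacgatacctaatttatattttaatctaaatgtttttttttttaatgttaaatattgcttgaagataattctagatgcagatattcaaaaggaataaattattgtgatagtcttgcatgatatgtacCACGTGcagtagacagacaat

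The next pair carries the evening element in capitals, which in AT2G40130 stands on the opposite strand and is therefore printed as its reverse complement. MYB111 had 1 match, at 42 bases before the start, and AT2G40130 had 2.
MYB111 (chr5:20001573-20001822, minus strand): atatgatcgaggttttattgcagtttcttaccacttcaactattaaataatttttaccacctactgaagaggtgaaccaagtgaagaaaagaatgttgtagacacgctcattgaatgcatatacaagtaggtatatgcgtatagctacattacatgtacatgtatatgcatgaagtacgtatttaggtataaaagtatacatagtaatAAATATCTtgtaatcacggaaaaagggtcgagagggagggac
AT2G40130 (chr2:16765459-16765708, plus strand): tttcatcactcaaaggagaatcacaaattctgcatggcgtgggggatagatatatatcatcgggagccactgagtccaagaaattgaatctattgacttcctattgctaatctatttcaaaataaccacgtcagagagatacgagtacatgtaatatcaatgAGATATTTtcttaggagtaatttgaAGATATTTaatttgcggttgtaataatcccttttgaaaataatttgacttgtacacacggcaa

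The phosphate element, in capitals, occurred 2 times before the start of SRG3 and 3 times before that of MYB111, whose window is printed above with its evening element marked. BT1 had 1 match before its start, and SPX1 and AT4G34550 each had 1 after it.
SRG3 (chr3:350011-350260, minus strand): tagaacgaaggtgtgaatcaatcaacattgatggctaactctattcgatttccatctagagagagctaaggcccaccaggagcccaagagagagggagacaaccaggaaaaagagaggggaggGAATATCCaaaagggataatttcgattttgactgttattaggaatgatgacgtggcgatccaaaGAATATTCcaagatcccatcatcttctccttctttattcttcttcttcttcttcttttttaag

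The libraries held 10389333 to 12353330 counts, and a count of 0 in a library allows up to 0.224 to 0.322 CPM (3 counts, counting error only). At 12 h NAA50 itself, the check of the labels, averaged 3.68 ± 0.522 CPM in NAA50 leaves and 15.02 ± 1.99 CPM in scrambled leaves (SD, n = 3). Levels are CPM after scaling of the libraries, changes are log2 values ± SE, and adjusted p-values come from edgeR's quasi-likelihood test over 18344 genes. A p-value here measures the spread between pools of 4 plants. The scrambled library 2 at 0 h stood apart from the others on the first 2 principal components. Among the 31 genes the NAA50 library 3 at 12 h was the lowest of its group for 24, the scrambled library 1 at 12 h the highest of its group for 24, and the scrambled library 3 at 24 h the highest of its group for 25. Summed levels of 5 mesophyll markers at 12 h ran from 13833 to 18850 CPM in NAA50 leaves and from 30084 to 35856 CPM in scrambled leaves. At 24 h they ran from 13019 to 16381 CPM and from 17216 to 28379 CPM. Sums of 6 guard cell and of 3 epidermis and trichome markers overlapped between the lines at both times. Taken singly, 3 of these 6 were lower in the NAA50 line at 12 h, and 1 higher and 2 lower at 24 h. Of the 3 epidermis and trichome markers, 1 was lower at 12 h and 2 at 24 h. The part of these markers in the line differences below was not tested. In leaf pools, fewer cells of a type and less RNA per cell cannot be told apart.

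**Figure D1:**
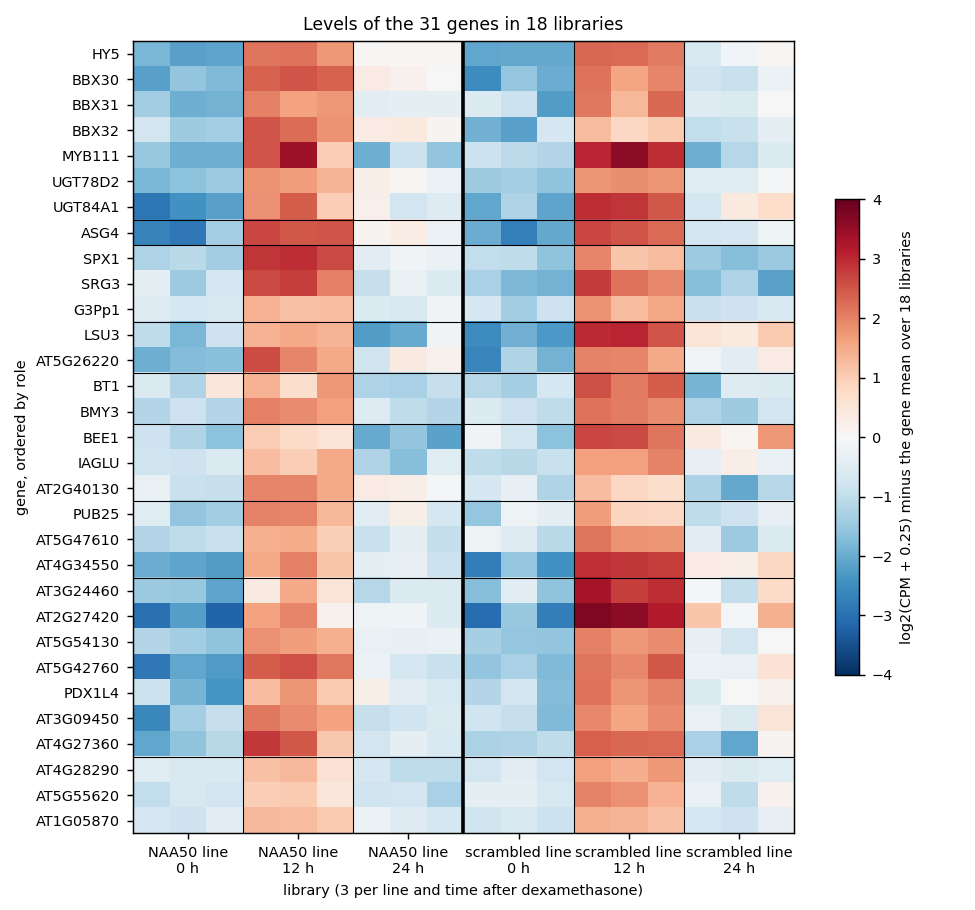
Levels of the 31 genes (down, grouped by role) in the 18 libraries (across, NAA50 line left, scrambled line right), as log2(CPM + 0.25) minus the gene's mean over all libraries. The 12 h columns are the reddest in both lines because the genes were chosen for it, while the 24 h columns of HY5, BBX30 and ASG4 are paler than their 0 h columns.

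By the same rule 50 genes peaked in the NAA50 line and 130 in the scrambled line, so the 31 shared genes are 62.0% of the first set and 23.8% of the second. Only 4 genes had a trough at 12 h in both lines by the mirror-image rule. At 12 h the 31 means ran from 5.02 CPM (AT4G27360) to 461 CPM (BMY3) in the NAA50 line and from 5.003 to 525 CPM, in the same genes, in the scrambled line. Per kilobase of exon, the mean at 12 h over both lines ran from 4.37 CPM for MYB111 to 248 CPM for BMY3. The 12 h mean was a median of 4.20 times the higher of the 0 h and 24 h means in the NAA50 line and 5.01 times in the scrambled line. In each line every 12 h library of each of the 31 genes lay above every 0 h and 24 h library of that line. The rule used the means of these same libraries, so that is description, and the share over all genes was not worked out. The 3 genes just inside the rule were UGT78D2 (smallest of its 4 ratios 3.02), BEE1 (3.06) and BT1 (3.07). The 3 just outside were AT3G20640 (2.99), AT3G14200 (2.90) and GIS (2.87). AT4G27360, of the dynein light chain family, lies at the limit of level, with 7.35, 5.73 and 1.97 CPM in the NAA50 line and 5.29, 4.92 and 4.80 CPM in the scrambled line. The time contrasts that the rule used called all 31 genes as higher at 12 h in edgeR. Of all genes 26.2% were called higher at 12 h than 0 h in the NAA50 line and 23.7% in the scrambled line, and 9.68% and 16.3% higher at 12 h than 24 h. Nothing is read from those counts for genes chosen by them.

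The 31 genes had a median of 1541 exonic bases and 2 exons, against 1804 bases and 5 exons over 18196 genes tested that the annotation holds. They lie on all 5 nuclear chromosomes, 3 on chromosome 1, 3 on chromosome 2, 8 on chromosome 3, 6 on chromosome 4 and 11 on chromosome 5. UGT84A1 and IAGLU, both glucosyltransferase genes, are 27074 bases apart on chromosome 4. No member had a near-identical copy at 95% identity, and the closest pairs were UGT78D2 with AT5G17030 (82.5%) and PUB25 with AT1G49780 (80.1%). All of the exonic length of AT4G28290 is overlapped by AT4G28280 on the opposite strand, 44.7% of SRG3 by AT3G02030, and 39.1% of AT5G42760 by its neighbours. The kit was stranded but the strand setting of the counting is not given in the sources used here, so the values of these 3 genes are uncertain.

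Light signalling and flavonoids held 7 of the 31 genes, and 4 of these 7 were higher a day after the spray than at its start in both lines, as were 11 of the 31. Line by line, 48.4% of the 31 were higher then in the NAA50 line and 51.6% in the scrambled line, against 28.1% and 27.6% of all genes. The 31 were chosen for a rise by 12 h and all genes were not, so these shares are description. The share of all genes higher in both lines was not worked out, so the counts for both lines have no like background. HY5 (AT5G11260, chr5:3593335-3595073 on the minus strand) had 62.9, 63.6 and 47.5 CPM in the NAA50 line, against 70.0, 67.4 and 60.2 CPM in the scrambled line at 12 h. At 0 h it had 3.73, 2.87 and 3.06 CPM in the NAA50 line, against 3.11, 3.22 and 3.15 CPM in the scrambled line. A day after the spray it had 14.3, 14.9 and 14.8 CPM in the NAA50 line, against 9.15, 12.9 and 14.7 CPM in the scrambled line. The lines overlapped at 12 h and the difference did not pass (-0.18 ± 0.14, adjusted p = 0.311). All 24 h libraries lay above all 0 h libraries of their line, by a log2 change of 2.18 ± 0.17, adjusted p = 9.66e-08 in the NAA50 line and 1.95 ± 0.18, adjusted p = 1.84e-06 in the scrambled line.

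BBX30 and BBX31 are B-box microproteins that bind CONSTANS, and BBX32 is a B-box protein that lowers HY5 activity through its partners. BBX30 (AT4G15248, chr4:8708841-8709482 on the plus strand) had 21.0, 23.5 and 21.0 CPM in the NAA50 line, against 18.7, 12.29 and 15.8 CPM in the scrambled line at 12 h. The lines did not overlap (0.49 ± 0.19, adjusted p = 0.0498). The call ranged in adjusted p over 0.00839 to 0.212 across the alternatives and was lost without any of 11 single libraries. It was also lost with the replicate number as a block (adjusted p = 0.0667), which pairs the 12 h libraries. At 24 h it had 5.01, 4.45 and 3.95 CPM in the NAA50 line, against 2.15, 1.99 and 3.26 CPM in the scrambled line, again with every NAA50 library higher (0.84 ± 0.24, adjusted p = 0.00903). BBX32 (AT3G21150, chr3:7412445-7413727 on the minus strand) had 72.9, 60.4 and 44.1 CPM in the NAA50 line, against 30.5, 22.2 and 25.9 CPM in the scrambled line at 12 h. Each NAA50 library was above each scrambled one, both then (1.17 ± 0.29, adjusted p = 0.00397) and a day after the spray (1.01 ± 0.32, adjusted p = 0.0152). The later call was lost without the scrambled library 1 at 24 h (adjusted p = 0.0635) or the scrambled library 2 at 24 h (adjusted p = 0.0503). BBX31 had 9.61, 7.14 and 7.80 CPM in the NAA50 line, against 10.2, 5.80 and 11.6 CPM in the scrambled line at 12 h. Its groups overlapped (-0.17 ± 0.30, adjusted p = 0.669). In the list of CDF, CONSTANS and BBX factors to which these 3 belong, 1 of the 20 other genes was higher and 13 were lower in the NAA50 line at 12 h (median -0.74), where 21.9% of all genes were higher and 24% lower. At 24 h 2 were higher and 11 lower (median -0.47), where 23.9% of all genes were higher and 24% lower.

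MYB111 (AT5G49330, chr5:19998823-20001572 on the minus strand) is an R2R3-MYB activator of flavonol synthesis and was nearly silent outside 12 h. It had 5.24, 9.81 and 1.64 CPM in the NAA50 line, against 7.75, 11.2 and 7.16 CPM in the scrambled line at 12 h. The NAA50 library 3 was the low one, and the lines overlapped (-0.64 ± 0.48, adjusted p = 0.289). At 0 h it had 1, 0 and 0 counts in the NAA50 line, against 3, 2 and 2 counts in the scrambled line. At 24 h it had 0, 3 and 1 counts in the NAA50 line, against 0, 2 and 5 counts in the scrambled line. UGT78D2, which adds glucose to flavonols and anthocyanidins, had 154, 142 and 115 CPM in the NAA50 line, against 152, 162 and 152 CPM in the scrambled line at 12 h. Its lines overlapped (-0.18 ± 0.15, adjusted p = 0.337), and its 24 h libraries lay above its 0 h libraries in each line (1.67 ± 0.16, adjusted p = 4.96e-07 in the NAA50 line and 1.14 ± 0.16, adjusted p = 4.23e-05 in the scrambled line). UGT84A1, a glucosyltransferase for hydroxycinnamates, had 6.41, 9.73 and 3.45 CPM in the NAA50 line, against 14.2, 13.4 and 10.2 CPM in the scrambled line at 12 h. Each NAA50 library was lower (-0.94 ± 0.37, adjusted p = 0.0471). That call was lost without any of 11 single libraries, in DESeq2 (adjusted p = 0.0743) and with library size in place of TMM (adjusted p = 0.0896; adjusted p over the alternatives 0.0159 to 0.18).

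**Figure D2:**
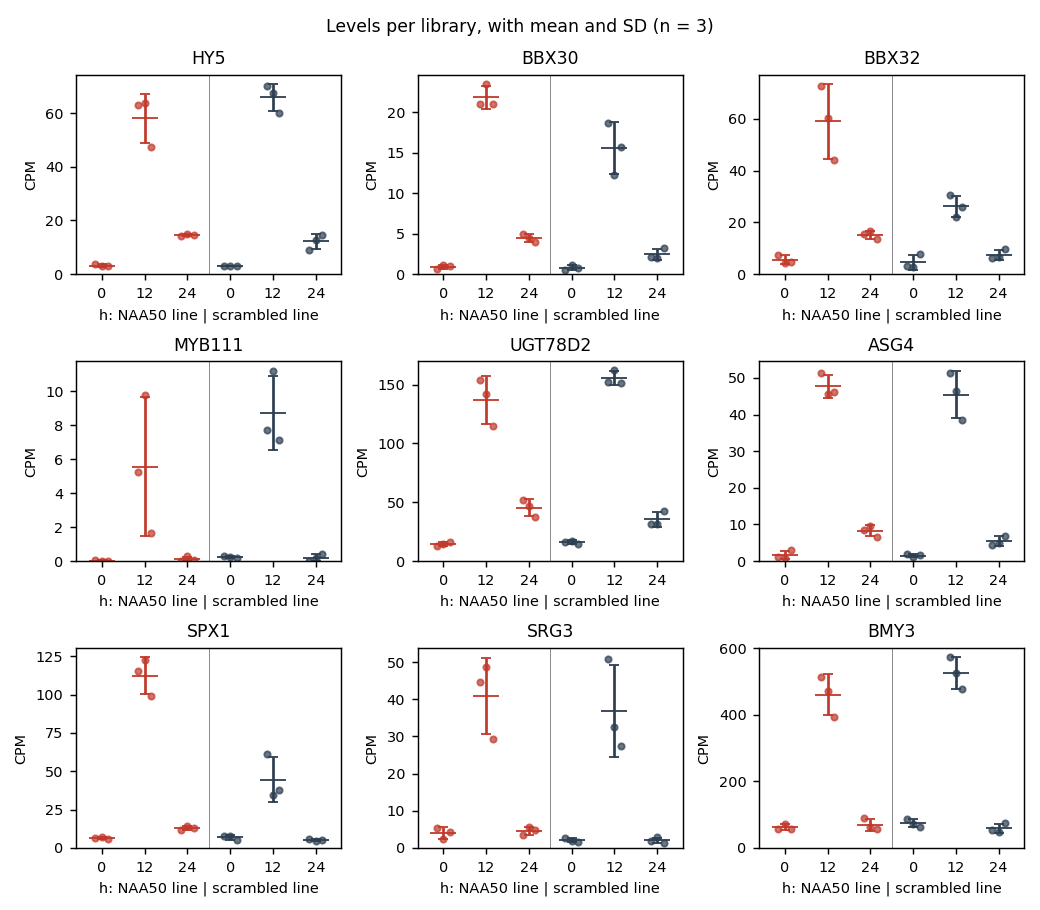
CPM of 9 genes in each library (points) with the mean and SD of 3 (bars), at 0, 12 and 24 h in the NAA50 line (left, red) and the scrambled line (right, dark); each axis starts at 0. HY5, UGT78D2 and ASG4 reach like levels in both lines, whereas every 12 h point of SPX1, BBX30 and BBX32 is higher in the NAA50 line.

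Other genes of these pathways were read from lists of which the flavonoid and HY5 lists were drawn up after the 31 genes were known. Of 9 flavonoid genes outside the set, 8 were higher and 1 lower at 12 h than at 0 h in the NAA50 line, and 7 were higher and 0 lower in the scrambled line. Of all genes 26.2% were higher in the NAA50 line and 23.7% in the scrambled line, and 4483 and 3767 of 18344 were lower. Against 24 h, 1 of the 9 was higher at 12 h in the NAA50 line (median -0.05) and 5 in the scrambled line (median 0.82), where 9.68% and 16.3% of all genes were. The one lower at 12 h than 0 h was TT4, chalcone synthase, at 49.3 ± 21.5 CPM at 12 h and 120.3 ± 28.7 CPM at 0 h in the NAA50 line (SD, n = 3; -1.29 ± 0.38, adjusted p = 0.0102). MYB12, a close relative of MYB111, averaged 0.0318 ± 0.0552, 9.25 ± 3.24 and 0.566 ± 0.109 CPM at 0, 12 and 24 h in the NAA50 line and 0.0716 ± 0.124, 4.09 ± 0.653 and 0.169 ± 0.136 CPM in the scrambled line (SD, n = 3), and missed the set because its scrambled mean stayed under 5 CPM. Of 9 genes around HY5, 7 were higher and 1 lower at 12 h than 0 h in the NAA50 line, and 8 higher and 0 lower in the scrambled line, set against the same shares of all genes. Against 24 h, 8 of the 9 were higher at 12 h in each line, where 9.68% of all genes were in the NAA50 line and 16.3% in the scrambled line. HYH, the closest homologue of HY5, averaged 11.0 ± 3.70, 92.9 ± 3.03 and 46.4 ± 4.28 CPM at 0, 12 and 24 h in the NAA50 line and 10.2 ± 3.32, 109 ± 6.83 and 51.3 ± 2.73 CPM in the scrambled line (SD, n = 3).

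**Figure D3:**
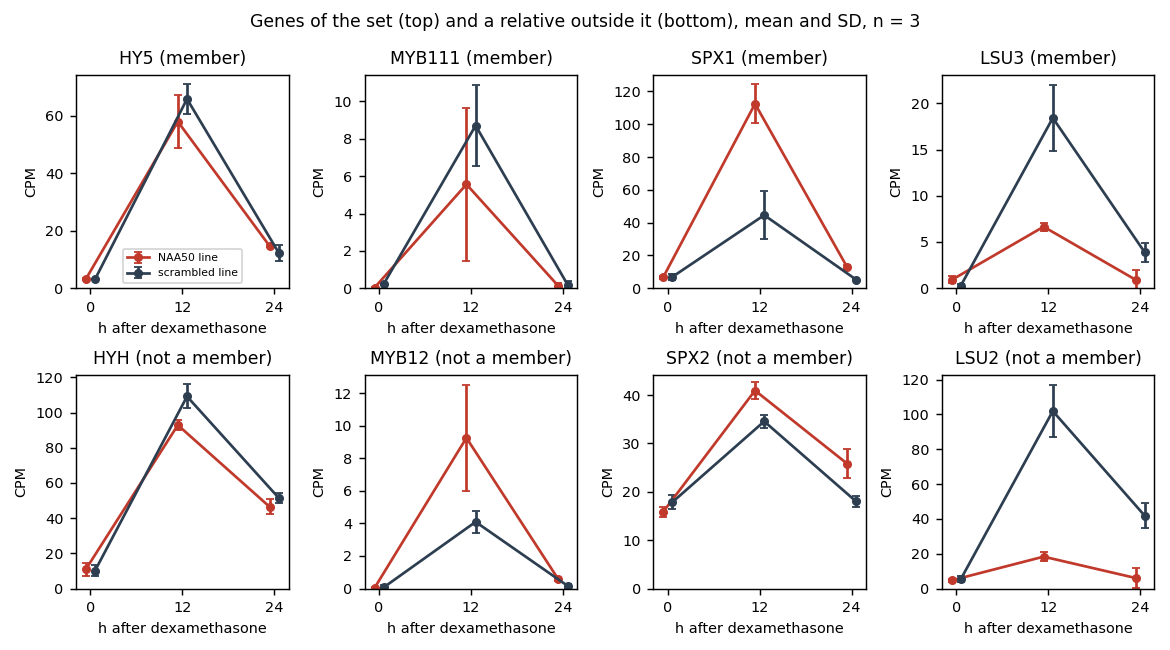
Mean CPM with SD (n = 3; bars are cut at 0) at 0, 12 and 24 h for 4 genes of the set (top) and a relative of each outside it (bottom), NAA50 line in red and scrambled line dark. The relatives HYH, MYB12, SPX2 and LSU2 also have their highest mean at 12 h in both lines but missed a threshold of the rule.

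ASG4 (AT1G01520, chr1:190408-192436 on the plus strand), a MYB-like factor of the CCA1 and REVEILLE family, was the clock-family gene of the set. It had 51.4, 45.5 and 46.3 CPM in the NAA50 line, against 51.4, 46.4 and 38.5 CPM in the scrambled line at 12 h. The lines overlapped (0.07 ± 0.24, adjusted p = 0.836). At 0 h it had 1.02, 0.860 and 2.90 CPM in the NAA50 line, against 1.79, 0.966 and 1.71 CPM in the scrambled line, and at 24 h 8.45, 9.65 and 6.64 CPM in the NAA50 line, against 4.49, 4.89 and 6.92 CPM in the scrambled line. Its 24 h libraries lay above its 0 h libraries in both lines, by 2.33 ± 0.32, adjusted p = 2.16e-05 in the NAA50 line and 1.85 ± 0.34, adjusted p = 0.000416 in the scrambled line. No gene of the core clock lists was in the set. Of 11 morning factors, 8 were higher and 2 lower at 12 h than 0 h in the NAA50 line, and 7 higher and 1 lower in the scrambled line, and of 14 evening factors 3 were higher and 2 lower in each line. Of all genes 26.2% were higher in the NAA50 line and 23.7% in the scrambled line, so the evening count is near that of all genes. Against 24 h, 7 of the 11 morning factors were higher at 12 h in the NAA50 line and 9 in the scrambled line, and 2 and 5 of the 14 evening factors, where 9.68% and 16.3% of all genes were.

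The morning factor CCA1 averaged 177 ± 6.95, 556 ± 27.0 and 356 ± 17.3 CPM at 0, 12 and 24 h in the NAA50 line and 194 ± 15.7, 737 ± 35.2 and 347 ± 23.1 CPM in the scrambled line (SD, n = 3). Its partner LHY averaged 154 ± 14.2, 634 ± 35.2 and 517 ± 23.3 CPM in the NAA50 line and 143 ± 5.74, 895 ± 12.23 and 619 ± 34.1 CPM in the scrambled line. GI, which links the clock to flowering, averaged 18.2 ± 2.07, 285 ± 18.7 and 123 ± 23.0 CPM in the NAA50 line and 17.3 ± 0.567, 149.9 ± 23.4 and 45.9 ± 1.40 CPM in the scrambled line. All 3 had their highest mean at 12 h in both lines, but were under 3 times the 24 h mean in at least 1 line. The evening repressor TOC1 averaged 23.0 ± 6.72, 18.8 ± 2.74 and 37.1 ± 6.39 CPM in the NAA50 line and 14.3 ± 4.02, 19.5 ± 3.05 and 37.8 ± 9.17 CPM in the scrambled line, lowest at 12 h in the NAA50 line and at 0 h in the scrambled line. The other 3 evening genes read in full were scarce. LUX, of the evening complex, averaged 2.28 ± 1.81, 3.46 ± 0.843 and 2.19 ± 0.410 CPM in the NAA50 line and 1.90 ± 0.596, 1.51 ± 0.318 and 0.820 ± 0.309 CPM in the scrambled line. ELF4, its partner there, averaged 1.0 ± 1.503, 0.213 ± 0.121 and 0.927 ± 0.103 CPM in the NAA50 line and 0.0600 ± 0.104, 0.121 ± 0.139 and 0.935 ± 0.281 CPM in the scrambled line. PRR5, a pseudo-response regulator, averaged 1.73 ± 1.99, 0.857 ± 0.469 and 1.45 ± 0.791 CPM in the NAA50 line and 0.400 ± 0.233, 0.656 ± 0.122 and 0.618 ± 0.329 CPM in the scrambled line.

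Phosphate genes were 3 of the 31, and SPX1 was the member furthest above its scrambled-line level in the NAA50 line at 12 h. SPX1 (AT5G20150, chr5:6802282-6803655 on the plus strand) binds PHR1 when phosphate is ample and so restrains the phosphate-starvation response. It had 115, 123 and 99.4 CPM in the NAA50 line, against 61.5, 34.2 and 38.1 CPM in the scrambled line at 12 h. Every NAA50 library was above every scrambled library (1.33 ± 0.19, adjusted p = 4.94e-05). At 24 h it had 11.8, 14.3 and 13.1 CPM in the NAA50 line, against 5.56, 4.71 and 5.45 CPM in the scrambled line, again without overlap (1.32 ± 0.22, adjusted p = 0.000168), and at 0 h the lines overlapped (-0.06 ± 0.22, adjusted p = 0.915). SRG3 (AT3G02040, chr3:348167-350010 on the minus strand), the glycerophosphodiester phosphodiesterase GDPD1, had 44.6, 48.8 and 29.2 CPM in the NAA50 line, against 50.7, 32.4 and 27.4 CPM in the scrambled line at 12 h. It did not differ at 12 h beyond the spread (0.15 ± 0.27, adjusted p = 0.685), while at 24 h its libraries were higher in the NAA50 line (1.18 ± 0.37, adjusted p = 0.0159). The call was lost without the NAA50 library 2 at 24 h (adjusted p = 0.0631) or the scrambled library 3 at 24 h (adjusted p = 0.073). At 0 h the mean of SRG3 was already higher in the NAA50 line, with overlap and without a call (0.96 ± 0.38, adjusted p = 0.319). Its change between 0 h and 24 h did not differ between the lines beyond the spread (0.22 ± 0.54, adjusted p = 0.793). G3Pp1, of the glycerol-3-phosphate permease family, had 222, 187 and 195 CPM in the NAA50 line, against 294, 199.8 and 246 CPM in the scrambled line at 12 h. Its lines overlapped (-0.30 ± 0.18, adjusted p = 0.196). Of 12 other phosphate-starvation genes, in a list drawn up after the set was known, 6 were higher and 3 lower at 12 h than 0 h in the NAA50 line, and 6 higher and 2 lower in the scrambled line. Of all genes 26.2% were higher in the NAA50 line and 23.7% in the scrambled line, and 4483 and 3767 of 18344 lower. Against 24 h, 2 of the 12 were higher and 1 lower at 12 h in the NAA50 line, and 6 higher and 1 lower in the scrambled line. For that comparison 9.68% and 16.3% of all genes were higher, and 1901 and 2645 of 18344 lower. SPX2, a relative of SPX1, averaged 15.8 ± 0.940, 41.0 ± 1.84 and 25.9 ± 2.96 CPM at 0, 12 and 24 h in the NAA50 line and 17.8 ± 1.49, 34.6 ± 1.41 and 18 ± 1.05 CPM in the scrambled line (SD, n = 3).

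Sulfur genes were LSU3 and AT5G26220 (GGCT2;1). LSU3 (AT3G49570, chr3:18372404-18373147 on the minus strand), a small protein gene named for its response to low sulfur, had 6.49, 7.14 and 6.33 CPM in the NAA50 line, against 19.9, 21.0 and 14.3 CPM in the scrambled line at 12 h. Each NAA50 library was lower (-1.47 ± 0.35, adjusted p = 0.0032). The 24 h libraries had 0.295, 0.378 and 2.09 CPM in the NAA50 line, against 3.499, 3.08 and 5.05 CPM in the scrambled line, lower again in each NAA50 library (-1.97 ± 0.46, adjusted p = 0.00249). The NAA50 library 3 at 24 h was far above the others of its group, and without it the difference was -3.48 (adjusted p = 1.17e-05). At 0 h LSU3 had 12, 5 and 15 counts in the NAA50 line, against 2, 4 and 3 counts in the scrambled line. Each NAA50 library was higher then, without a call (1.62 ± 0.70, adjusted p = 0.352). GGCT2;1, which breaks down glutathione, had 37.8, 23.7 and 17.6 CPM in the NAA50 line, against 24.5, 23.7 and 17.6 CPM in the scrambled line at 12 h. Its lines overlapped (0.27 ± 0.31, adjusted p = 0.506). Of 7 other sulfur-starvation genes, 6 were higher and 0 lower at 12 h than 0 h in each line, where 26.2% of all genes were higher in the NAA50 line and 23.7% in the scrambled line. Against 24 h, 5 of the 7 were higher and 1 lower at 12 h in the NAA50 line, and 6 higher and 0 lower in the scrambled line. For that comparison 9.68% and 16.3% of all genes were higher, and 1901 and 2645 of 18344 lower. Between the lines at 12 h all 7 were lower in the NAA50 line, by log2 differences of -0.66 (SDI1) to -2.48 (LSU2), where 24% of all genes tested (4466 of 18344) were. LSU2, a relative of LSU3, averaged 4.70 ± 0.975, 18.3 ± 2.53 and 6.06 ± 5.69 CPM at 0, 12 and 24 h in the NAA50 line and 5.49 ± 1.87, 102 ± 15 and 41.8 ± 7.05 CPM in the scrambled line (SD, n = 3).

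BMY3 (AT5G18670, chr5:6225956-6228195 on the plus strand), also named BAM9, of the beta-amylase family, was the most abundant gene of the set. It had 515, 472 and 395 CPM in the NAA50 line, against 574, 525 and 477 CPM in the scrambled line at 12 h. At 0 h it had 56.8, 72.1 and 56.5 CPM in the NAA50 line, against 87.4, 71.4 and 62.9 CPM in the scrambled line. A day after the spray it had 88.9, 62.1 and 56.6 CPM in the NAA50 line, against 53.6, 46.9 and 74.7 CPM in the scrambled line. The lines overlapped at 12 h (-0.19 ± 0.20, adjusted p = 0.454), and its 24 h and 0 h levels overlapped in each line. Of 16 other genes of starch breakdown, 7 were higher and 5 lower at 12 h than 0 h in the NAA50 line, and 2 higher and 8 lower in the scrambled line. Of all genes 26.2% were higher in the NAA50 line and 23.7% in the scrambled line, and 4483 and 3767 of 18344 lower. Against 24 h, 0 of the 16 were higher and 3 lower at 12 h in the NAA50 line, and 5 higher and 0 lower in the scrambled line. For that comparison 9.68% and 16.3% of all genes were higher, and 1901 and 2645 of 18344 lower. BT1, a BTB and TAZ domain protein that responds to nitrate and sugar, had 118, 74.1 and 150.5 CPM in the NAA50 line, against 264, 189 and 241 CPM in the scrambled line at 12 h. All NAA50 libraries were lower (-1.02 ± 0.38, adjusted p = 0.038). The call was lost with library size in place of TMM (adjusted p = 0.0945). It was also lost without the NAA50 library 1 at 12 h (adjusted p = 0.0814), the NAA50 library 2 at 12 h (adjusted p = 0.147), the scrambled library 1 at 12 h (adjusted p = 0.105) or the scrambled library 3 at 12 h (adjusted p = 0.0773).

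Among the hormone genes, AT2G40130 (SMXL8), a repressor in strigolactone signalling, had 52.1, 51.5 and 38.7 CPM in the NAA50 line, against 31.6, 23.9 and 21.8 CPM in the scrambled line at 12 h. It was higher in each NAA50 library (0.88 ± 0.24, adjusted p = 0.00766). The 24 h libraries had 16.8, 16.1 and 12.8 CPM in the NAA50 line, against 5.38, 2.99 and 5.86 CPM in the scrambled line, again without overlap (1.67 ± 0.27, adjusted p = 0.00015). BEE1, a bHLH factor induced early by brassinosteroid, had 9.93, 8.24 and 7.07 CPM in the NAA50 line, against 31.5, 30.8 and 21.9 CPM in the scrambled line at 12 h. It was lower in each NAA50 library (-1.74 ± 0.37, adjusted p = 0.00138). At 24 h it had 0.983, 1.42 and 0.895 CPM in the NAA50 line, against 6.19, 5.07 and 16.3 CPM in the scrambled line (-3.07 ± 0.48, adjusted p = 0.0001), the largest difference of any member at that time. The scrambled library 3 at 24 h was the high one, and without it the difference was -2.36 (adjusted p = 0.00026). IAGLU, which joins glucose to the auxin indole-3-acetate, had 99.3, 82.7 and 120.1 CPM in the NAA50 line, against 129.6, 132 and 165 CPM in the scrambled line at 12 h. All NAA50 libraries lay lower at 12 h but the difference did not pass (-0.50 ± 0.23, adjusted p = 0.0937), and at 24 h it did (-0.95 ± 0.25, adjusted p = 0.00505).

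Genes of ubiquitin ligase families numbered 3. PUB25, a U-box ligase of immune and cold signalling, had 61.2, 59.1 and 38.6 CPM in the NAA50 line, against 49.2, 27.5 and 27.2 CPM in the scrambled line at 12 h. Its lines overlapped (0.61 ± 0.35, adjusted p = 0.168). AT5G47610, a RING protein gene, had 27.1, 28.6 and 19.4 CPM in the NAA50 line, against 45.1, 35.0 and 34.6 CPM in the scrambled line at 12 h. It was lower in each NAA50 library (-0.61 ± 0.24, adjusted p = 0.0437). The call was lost without any of 10 single libraries and with library size in place of TMM (adjusted p = 0.127; adjusted p over the alternatives 0.0196 to 0.169). AT4G34550, an F-box protein gene, had 6.33, 9.18 and 4.76 CPM in the NAA50 line, against 17.2, 16.5 and 15.5 CPM in the scrambled line at 12 h. It was lower in each NAA50 library (-1.28 ± 0.25, adjusted p = 0.000647). At 24 h it was lower as well (-1.13 ± 0.31, adjusted p = 0.00757).

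The 2 members furthest below their scrambled-line level in the NAA50 line at 12 h belong to little-studied families. AT3G24460, of the Serinc family of membrane proteins, had 15.2, 34.1 and 16.8 CPM in the NAA50 line, against 118, 80.7 and 91.3 CPM in the scrambled line at 12 h. The lines did not overlap (-2.13 ± 0.39, adjusted p = 0.000467). AT2G27420, of the cysteine proteinase family, had 17.9, 22.8 and 6.49 CPM in the NAA50 line, against 80.1, 70.6 and 53.5 CPM in the scrambled line at 12 h. The lines did not overlap (-2.11 ± 0.40, adjusted p = 0.000596). At 24 h AT2G27420 was lower too (-1.31 ± 0.45, adjusted p = 0.0245). The call was lost without the NAA50 library 1 at 24 h (adjusted p = 0.0517), the NAA50 library 2 at 24 h (adjusted p = 0.051), the NAA50 library 3 at 24 h (adjusted p = 0.0773), the scrambled library 1 at 24 h (adjusted p = 0.0648) or the scrambled library 3 at 24 h (adjusted p = 0.115). AT3G24460 did not pass then (-0.86 ± 0.43, adjusted p = 0.107). AT5G54130, a calcium-binding member of the endonuclease, exonuclease and phosphatase family, had 176, 159.7 and 133 CPM in the NAA50 line, against 204, 167 and 185 CPM in the scrambled line at 12 h. Its lines overlapped (-0.25 ± 0.16, adjusted p = 0.221). AT5G42760, of the leucine carboxyl methyltransferase family, had 69.2, 77.1 and 55.7 CPM in the NAA50 line, against 56.1, 48.8 and 71.4 CPM in the scrambled line at 12 h. Its lines overlapped (0.20 ± 0.23, adjusted p = 0.514). Its lower level at 24 h (-0.68 ± 0.26, adjusted p = 0.039), with overlap, lost its call without the NAA50 library 2 at 24 h (adjusted p = 0.107), the NAA50 library 3 at 24 h (adjusted p = 0.14) or the scrambled library 3 at 24 h (adjusted p = 0.281). At 0 h AT5G42760 was already lower in each NAA50 library, without a call (-0.89 ± 0.32, adjusted p = 0.287). Its change between 0 h and 24 h did not differ between the lines beyond the spread (0.21 ± 0.41, adjusted p = 0.739).

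Of the members not yet given, PDX1L4, annotated as a PDX1-like protein, averaged 12.9 ± 3.63 CPM at 12 h in the NAA50 line and 19.7 ± 2.90 CPM in the scrambled line (SD, n = 3). AT3G09450, of the fusaric acid resistance family, averaged 16.6 ± 2.91 CPM in the NAA50 line and 15.6 ± 1.94 CPM in the scrambled line. Neither differed between the lines at 12 h beyond the spread (adjusted p = 0.119 and 0.836). The uncharacterized AT5G55620 had 65.7, 68.4 and 44.9 CPM in the NAA50 line, against 131, 118 and 85.6 CPM in the scrambled line at 12 h. It was lower in each NAA50 library (-0.90 ± 0.24, adjusted p = 0.00724). Its call at 24 h (-0.65 ± 0.26, adjusted p = 0.0495) was lost without any of 15 single libraries (adjusted p over the alternatives 0.00455 to 0.296). The uncharacterized AT4G28290 had 26.5, 28.9 and 17.4 CPM in the NAA50 line, against 36.5, 32.5 and 39.0 CPM in the scrambled line at 12 h. It was lower in each NAA50 library (-0.57 ± 0.16, adjusted p = 0.00792). AT1G05870, of the DUF1685 family, averaged 54.2 ± 5.12 CPM at 12 h in the NAA50 line and 58.3 ± 5.31 CPM in the scrambled line, without a call (-0.10 ± 0.15, adjusted p = 0.594).

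Between the lines at 12 h, 14 of the 31 genes were called (45.2%), against 46.2% of all genes tested. The rule asked each gene to peak and to reach 5 CPM at 12 h in both lines. That bears on how often the lines could differ then, so these shares are description. Of the 14, 4 were higher in the NAA50 line (SPX1, BBX32, AT2G40130 and BBX30), where 21.9% of all genes were, and 10 were lower (32.3% of the set), where 24% of all genes were. The median difference was -0.19 over the set and -0.03 over all genes. At 24 h, 12 of 31 were called (38.7%), against 47.9% of all genes, 5 higher and 7 lower, against 23.9% higher and 24% lower, with medians of 0.01 over the set and -0.03 over all genes. The 5 higher at 24 h were BBX30, BBX32, SRG3, SPX1 and AT2G40130, and the 7 lower were BEE1, LSU3, AT2G27420, AT4G34550, IAGLU, AT5G42760 and AT5G55620. At both times 4 genes were higher (SPX1, BBX32, AT2G40130 and BBX30) and 5 lower (LSU3, AT5G55620, AT4G34550, AT2G27420 and BEE1), and 0 changed direction. The share of all genes called at both times was not worked out, so these counts have no like background. Of 3 xylem markers, 1 was higher in the NAA50 line at 12 h and 3 at 24 h (median 2.22), with a summed level at 24 h of 66.1 to 92.0 CPM in NAA50 leaves and 11.97 to 32.1 CPM in scrambled leaves. At 12 h the xylem sum was 34.8 to 37.6 CPM in NAA50 leaves and 17.3 to 26.3 CPM in scrambled leaves. The sum of 5 phloem and bundle markers was 727 to 807 CPM in NAA50 leaves and 531 to 554 CPM in scrambled leaves at 12 h. At 24 h it was 762 to 1138 CPM in NAA50 leaves and 456 to 515 CPM in scrambled leaves. Taken singly, 3 of these 5 were higher and 2 lower in the NAA50 line then (median 0.33). The part of these markers in the line differences was not tested. At 0 h edgeR called 0 of 31 and DESeq2 0, with 3 at an unadjusted p under 0.05 in edgeR and 4 in DESeq2, and 0.0981% of all genes were called.

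**Figure D4:**
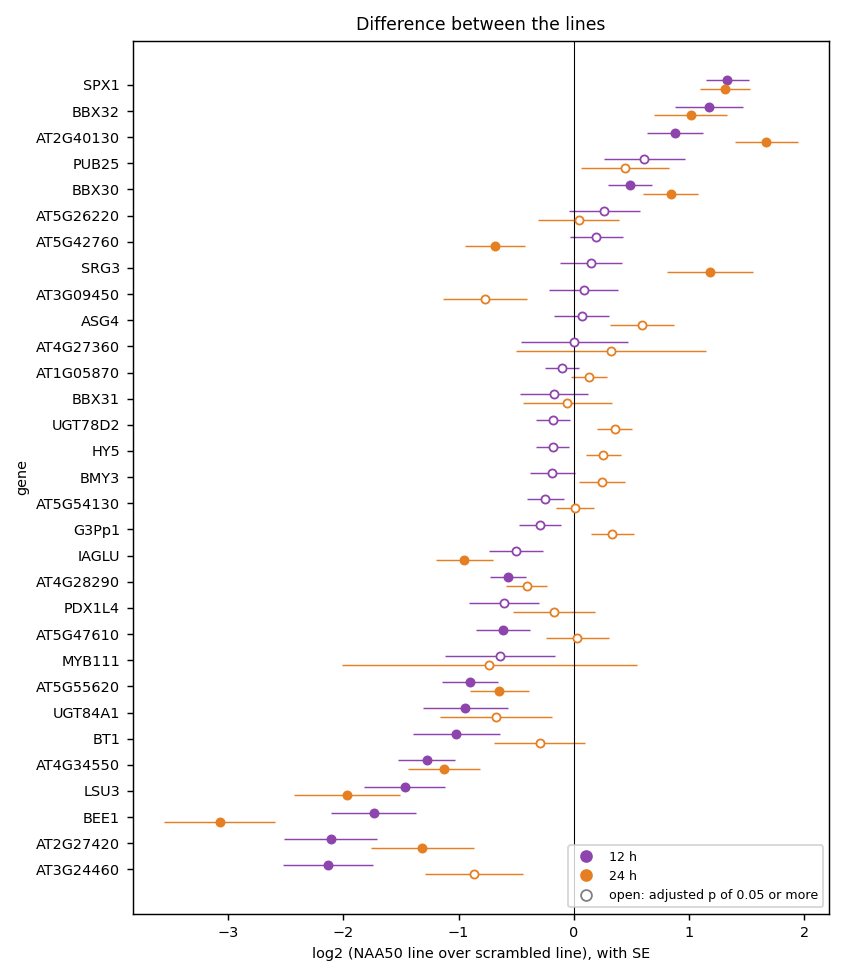
Log2 difference between the NAA50 line and the scrambled line, with SE, for each of the 31 genes at 12 h (purple) and 24 h (orange), ordered by the 12 h value; filled points have an adjusted p under 0.05. SPX1, BBX32, AT2G40130 and BBX30 lie right of 0 at both times and LSU3, BEE1, AT2G27420, AT4G34550 and AT5G55620 left of it.

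The height of the 12 h peak, the 12 h value minus the mean of 0 h and 24 h on the log2 scale, was set side by side in the lines. The rule asked for a peak of at least 3 times in each line, which limits how far the lines could differ in it, so nothing is read from the calls. edgeR called 0 of 31 genes, with 7 at an unadjusted p under 0.05, DESeq2 called 3, and edgeR called 12.0% of all genes. The ratio of the 12 h mean to the higher flanking mean was larger in the NAA50 line for 10 genes and larger in the scrambled line for 21. On the log2 scale the peak height of AT5G42760 was greater in the NAA50 line by 0.99 ± 0.31 (SE) and that of SPX1 by 0.71 ± 0.24. The differences for AT3G24460 and G3Pp1 were -1.42 ± 0.50 and -0.62 ± 0.22. At 12 h itself the lines overlapped for AT5G42760 (0.20 ± 0.23) and G3Pp1 (-0.30 ± 0.18). The flanks of AT5G42760 were lower in the NAA50 line, by -0.89 ± 0.32 at 0 h and -0.68 ± 0.26 at 24 h.

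Many of the 31 genes stood higher a day after the spray than at its start. At 24 h against 0 h, 15 were higher and 0 lower in the NAA50 line (48.4% called), where 54.4% of all genes were called, 28.1% higher and 26.4% lower. In the scrambled line 16 were higher and 1 lower (54.8% called), where 54.1% of all genes were called, 27.6% higher and 26.5% lower. The share called in either direction was near that of all genes, while 48.4% of the set in the NAA50 line and 51.6% in the scrambled line were called higher. The set was chosen for a rise by 12 h and all genes were not, so these shares have no like background and are description. The median change was 0.99 over the set in the NAA50 line and 0.91 in the scrambled line, against -0.00 over all genes in each. The 11 genes higher in both lines were HY5, ASG4, BBX30, UGT78D2, UGT84A1, AT4G34550, AT2G27420, AT5G26220, AT5G42760, AT5G54130 and PDX1L4. AT2G40130 was called higher in the NAA50 line and lower in the scrambled line. Called in the NAA50 line and not in the scrambled line were BBX31, BBX32 and SPX1, and called as higher in the scrambled line and not in the NAA50 line were LSU3, BEE1, IAGLU, AT3G24460 and AT3G09450. Among genes called in both, AT2G27420 (2.81 ± 0.64, adjusted p = 0.00152) and ASG4 rose most in the NAA50 line beside UGT84A1, whose counts were few, and in the scrambled line AT4G34550 (3.505 ± 0.42, adjusted p = 1.49e-05) and AT2G27420 (3.57 ± 0.57, adjusted p = 0.000123) rose most. Without the scrambled library 2 at 0 h these were 4.35 (AT4G34550) and 4.32 (AT2G27420), and without the NAA50 library 3 at 0 h the change of ASG4 in the NAA50 line was 3.11. In the scrambled line the calls of PDX1L4, AT3G09450 and AT3G24460 were each lost without at least 1 library of that line at 0 h or 24 h. UGT84A1 held 42 counts at 24 h and 3 at 0 h over the NAA50 libraries, a ratio of 14.2 with an exact 95% counting interval of 4.54 to 71.7. Mesophyll markers moved the other way, all 5 lower at 24 h than 0 h in both lines (medians -1.67 in the NAA50 line and -1.07 in the scrambled line). Of 3 xylem markers, 3 were higher at 24 h than 0 h in the NAA50 line (median 2.07) and 0 in the scrambled line (median -0.32). Of 5 phloem and bundle markers, 2 were higher and 2 lower at 24 h than 0 h in the NAA50 line, and 0 higher and 1 lower in the scrambled line. The part of these markers in the members' changes was not tested.

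**Figure D5:**
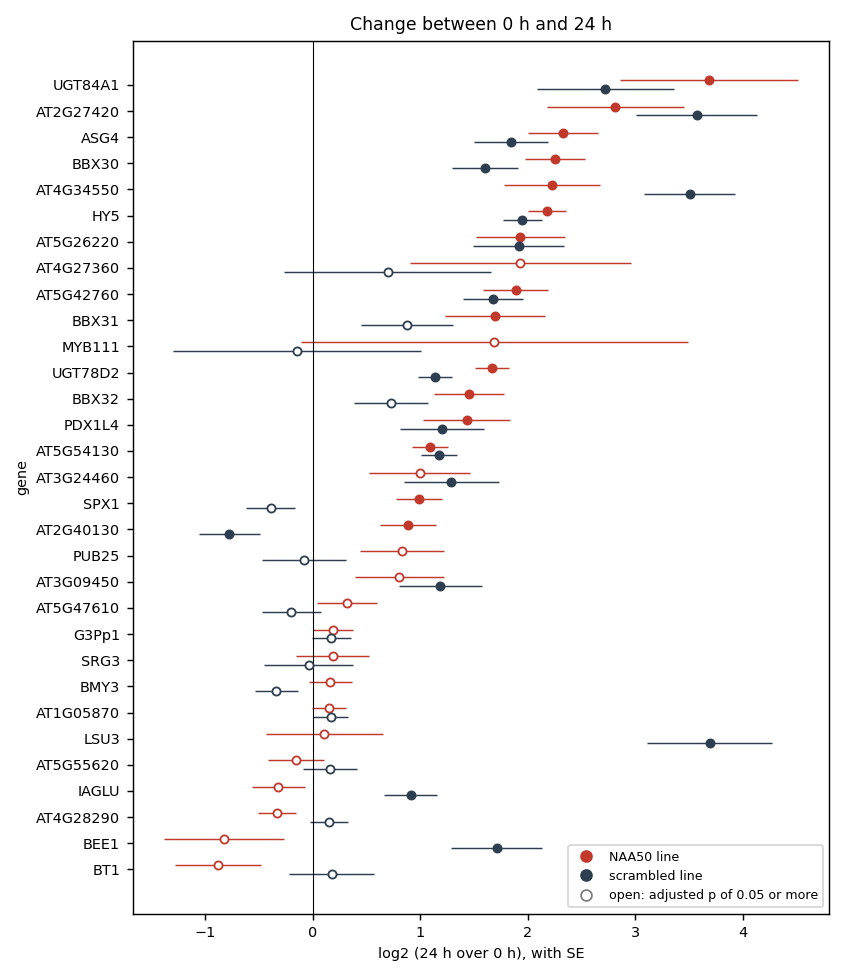
Log2 change between 0 h and 24 h, with SE, for each of the 31 genes in the NAA50 line (red) and the scrambled line (dark), ordered by the NAA50 value; filled points have an adjusted p under 0.05. Of the filled points only AT2G40130 in the scrambled line lies left of 0, and the value of MYB111 rests on few counts.

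Whether that change differed between the lines was tested after the changes in each line had been seen. Of the 31 genes 5 were called (16.1%), 2 higher and 3 lower, against 29.7% of all genes tested, 14.7% higher and 15.1% lower. SPX1 (1.38 ± 0.31, adjusted p = 0.0042) and AT2G40130 (1.66 ± 0.38, adjusted p = 0.00485) had the larger change in the NAA50 line. AT2G40130 rose in the NAA50 line (0.88 ± 0.26, adjusted p = 0.00936) and fell in the scrambled line (-0.78 ± 0.28, adjusted p = 0.0296), the fall losing its call without the scrambled library 1 at 0 h (adjusted p = 0.0626), the scrambled library 2 at 0 h (adjusted p = 0.143) or the scrambled library 2 at 24 h (adjusted p = 0.138). LSU3 (-3.58 ± 0.83, adjusted p = 0.00501), BEE1 (-2.53 ± 0.70, adjusted p = 0.0132) and IAGLU (-1.23 ± 0.35, adjusted p = 0.0151) had the smaller change in the NAA50 line, and none of these 3 passed in the NAA50 line on its own. Without the NAA50 library 3 at 24 h the value of LSU3 was -5.10, and without the scrambled library 3 at 24 h that of BEE1 was -1.82. The value of LSU3 includes its line difference at 0 h, 1.62 ± 0.70 (adjusted p = 0.352). The scrambled libraries held only 2, 4 and 3 counts of LSU3 then. The 3 xylem markers differed in this change too, with a median of 2.45, and their part in it was not tested.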

How the data were processed

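RNA from 18 leaf libraries was analysed from whole-number counts per gene that the authors deposited as 1 table of 23790 genes. Per the submitters' processing notes, Trimmomatic, STAR and DESeq2 were used with the build TAIR10, with no roles or versions. The counting program and its strand setting are not given. Each column was assigned by its line, hours and replicate. The scrambled 12 h columns carry a code unlike that of the titles, whose stated time was followed. Of the gene identifiers, 98.8% were found in RefSeq TAIR10.1, which gave symbols, positions and promoter sequence.

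In R 4.3.3 with edgeR 4.0.16, filterByExpr (minimum count 10, minimum total 15) kept 18344 genes, all 31 members among them. Libraries were scaled by TMM on the kept genes (factors 0.864 to 1.09), 1 mean per group was fitted to 18 libraries (residual df 12, biological coefficient of variation 18.16%), and each contrast had a quasi-likelihood F test across all kept genes at a Benjamini-Hochberg adjusted p under 0.05. The SE was taken as the absolute log2 change over the root of F. DESeq2 1.42.0 was an alternative. Same-numbered libraries at 12 h deviated together from their group means (correlations 0.128, 0.220 and 0.342), a pairing seen in the data and stated in no label, so a blocked value is given where it changes a 12 h call. The other groups compared did not pair. The test was tried on simulated counts. Near copies were sought with BLAST 2.17.0.

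The 31 members and the gene lists were chosen with earlier results of these data known, and the flavonoid, HY5 and phosphate lists, 3 motifs and the test of the line difference in the change between 0 h and 24 h were added after the members' values were seen. TMM was first run on all genes of the table and was changed to the kept genes after the first counts of calls had been seen, to follow earlier work on the table. The change moved the peak-height count from 1 to 0 and left the same 31 members. Genes named are members of the lists, the 10 with the highest scrambled-line peak ratio, the 10 most abundant, up to 5 calls per contrast and direction, and the genes next to the threshold. The other members are given so that each of the 31 is accounted for, 7 clock genes outside the set were named by the same rule, and the relatives, TT4 and SDI1 were chosen after their values were seen.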

Additional observations from a re-analysis of the deposited data

Results flagged for a closer look

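The change between 0 h and 24 h differed between the lines for 5 members in edgeR's quasi-likelihood test of the difference itself, 16.1% of the set against 29.7% of all genes tested. The difference, NAA50 line minus scrambled line, was 1.38 for SPX1 (adjusted p = 0.0042), 1.66 for AT2G40130 (adjusted p = 0.00485), -3.58 for LSU3 (adjusted p = 0.00501), -2.53 for BEE1 (adjusted p = 0.0132) and -1.23 for IAGLU (adjusted p = 0.0151). Each of the 5 stayed called under all 23 alternatives, with the highest adjusted p at 0.0128 for SPX1, 0.0136 for AT2G40130, 0.02 for LSU3, 0.0421 for BEE1 and 0.0417 for IAGLU. Leaving out the NAA50 library 3 at 24 h, which had 28 counts of LSU3 against 3 and 4 in the other libraries of its group, moved the value of LSU3 to -5.10. Leaving out the scrambled library 3 at 24 h moved that of BEE1 to -1.82. The value of LSU3 also includes a line difference of 1.62 at 0 h, where the scrambled libraries held 2, 4 and 3 counts.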

How the results depend on the processing

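Library size in place of TMM, DESeq2, no filter on low counts, the replicate number as a block, TMM on all genes and leaving out each of 18 libraries were run for each comparison. No called member changed direction. Calls numbered 10 to 14 at 12 h and 8 to 13 at 24 h with 1 library left out, 15 to 17 for 24 h against 0 h in each line, 5 to 6 for its line difference, and 0 at 0 h. For peak height, library size gave 2 members (AT5G42760 and SPX1), DESeq2 3, TMM on all genes 1 (AT5G42760), no filter 0, and leaving out 1 library 0 to 2, with at least 1 in 11 of 18 rounds. Scaling by library size alone moved the median of all genes at 12 h to 0.14, against -0.03, and that of the set to -0.02, against -0.19. It moved the median of all genes for 24 h against 0 h in the scrambled line to 0.12, against -0.00. The replicate numbers paired the 12 h libraries and not the other groups compared (correlations over all group pairs -0.485 to 0.409, 21 of 45 above 0.1). With the replicate block 13 members were called at 12 h (BBX30 was lost), 10 at 24 h (AT5G42760 at an adjusted p of 0.0595 and AT5G55620 at 0.0526) and 1 (G3Pp1) for peak height. The block ended no other call.

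The rule gave 104 genes at a fold of 2, 8 at 5, 39 with a level of 1 CPM, and 9 when the lowest 12 h library had to exceed the highest 0 h and 24 h library 3 times. Leaving out 1 library gave 21 to 34 genes, the lowest without the NAA50 library 2 at 12 h, and 18 of the 31 were kept each time; AT4G27360 was kept in 8 of 18. TMM on all genes gave the same 31, and TMM factors applied to total counts gave 30, chosen after seeing the data.

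Library size in place of TMM lost the 12 h calls of BT1, AT5G47610 and UGT84A1. At 12 h 10 of 14 calls held under every alternative; the other 4 ranged in adjusted p over 0.00839 to 0.212 (BBX30, lost without any of 11 single libraries), 0.0196 to 0.169 (AT5G47610, 10), 0.0159 to 0.18 (UGT84A1, 11) and 0.0129 to 0.147 (BT1, 4). At 24 h 7 of 12 held; AT5G55620 was lost without any of 15 single libraries, AT2G27420 without 5, AT5G42760 without 3, and SRG3 and BBX32 without 2 each. For 24 h against 0 h all 15 held in the NAA50 line and 13 of 17 in the scrambled line, where PDX1L4, AT3G09450, AT2G40130 and AT3G24460 lost theirs without 1 library of the scrambled line at 0 h or 24 h. Leaving out 1 library moved a called difference by over 1.5 times for LSU3 and BEE1 as given above, and for 24 h against 0 h for PDX1L4 (2.1 without the NAA50 library 1 at 0 h), ASG4 (3.11) and UGT84A1 (4.48, both without the NAA50 library 3 at 0 h) in the NAA50 line, and for UGT84A1 (3.34), AT4G34550 (4.35), AT2G27420 (4.32, each without library 2 at 0 h) and BEE1 (0.9993, without library 3 at 24 h) in the scrambled line. The cause was not tested.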
